A study of Mus musculus with 32 samples.

Results

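Livers of 8 male mice fed SC-435 were compared, 4 Cyp2c70 KO (knockout) and 4 WT (wild-type), out of the 32 mice in the series. The comparison asks which liver genes still differed between genotypes when both genotypes received the drug. Members were taken from the labels, as the male mice on the SC-435 diet, and all 15434 genes that passed a filter on low counts were tested. All 8 mice were C57BL/6, were killed at 12 weeks, and had been fed a diet with 0.006% SC-435, about 11 mg per kg of body weight per day. The sources differ on whether that diet began at weaning or some weeks later. The KO allele was a CRISPR deletion that took in exon 2 of Cyp2c70, carried in every cell of the body, and the line goes back to a single founder mouse, so nothing separates the deletion from other variants carried by that founder. The male mice on plain chow (4 WT and 4 KO) and the female mice on SC-435 (4 WT and 4 KO), of the same strain and age, serve below for comparison.

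Cyp2c70 is the mouse liver enzyme that hydroxylates chenodeoxycholic acid and ursodeoxycholic acid at the 6β position to make muricholic acids, the hydrophilic bile acids that set mice apart from humans. Without it the bile acid pool holds chenodeoxycholic acid in place of muricholic acids and is more hydrophobic. SC-435 blocks the ileal apical bile acid transporter, which takes bile acids up from the gut lumen so that they return to the liver. Less bile acid then returns, and the liver makes more bile acid from cholesterol through Cyp7a1, the rate-limiting enzyme of the classical pathway.

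Total counts ran from 36476021 to 44573423 a library, and levels are given below as CPM, counts scaled to a fixed library size after TMM normalisation, with n = 4 mice a group. Albumin (Alb), the defining hepatocyte transcript and the check of the labelled tissue, lay between 31600 and 60900 CPM in all 8 mice. A single mouse, WT mouse 4, stood apart from its group. Its serum amyloid genes Saa2 and Saa1 were at 9150 and 9360 CPM against 8.33 to 15.3 and 25.1 to 49.4 CPM in the other WT mice, and lipocalin 2 (Lcn2) was at 768 CPM against 2.06 to 5.17 CPM. These are acute-phase genes, which the liver makes in systemic inflammation. KO mice 1 and 2 carried adipocyte transcripts: adiponectin (Adipoq) was at 5.23 and 8.56 CPM there and at 0 to 0.106 CPM in the other 6 mice. Results that rest on these mice are given with the values beside them, and bulk RNA cannot tell fewer cells of a type from less RNA per cell. Among the chow males, WT mice 1 and 4 also carried adipocyte transcripts, with 253 and 244 Adipoq counts against 0 to 5 in the other chow males. The part of those transcripts in the chow and diet interaction values was not tested.

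The exon that the KO allele lacks is exon 2 of 9 (GRCm38, chr19:40183866-40184028, minus strand). Its 163 bases are not a multiple of 3, and it is shown because it is the lesion every value below is set against. Capitals mark exon 2 in the GENCODE transcript, with 30 bases of exon 1 before it and 30 bases of exon 3 after it.
Cyp2c70 exon 2: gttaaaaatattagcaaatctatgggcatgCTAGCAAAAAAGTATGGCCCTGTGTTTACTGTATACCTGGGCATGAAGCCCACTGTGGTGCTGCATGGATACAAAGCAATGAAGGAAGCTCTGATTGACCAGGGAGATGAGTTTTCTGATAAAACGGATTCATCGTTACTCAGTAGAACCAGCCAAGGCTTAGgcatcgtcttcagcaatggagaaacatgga

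Cyp2c70 mRNA was lower in every KO mouse but did not disappear. The WT mice on SC-435 had 348, 271, 281 and 373 CPM (318 ± 49.6, SD) and the KO mice had 109, 150, 113 and 120 CPM (123 ± 18.6, SD). The groups did not overlap, the log2 fold change was -1.37 (SE 0.14, edgeR adjusted p = 0.00627), and the exact two-sided permutation p was 0.0286, the smallest that 4 against 4 mice allow. The call was narrow: the adjusted p was 0.0502 without KO mouse 1 and 0.0508 without KO mouse 4, with the fold change at -1.32 and -1.36. Counts are summed over the whole gene, so the table does not say which exons the remaining KO reads came from. On chow the log2 fold change was -1.81 (SE 0.19, adjusted p = 0.00563) and in SC-435 females it was -1.74 (SE 0.10, adjusted p = 3.48e-05).

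Few other genes passed the test. At an adjusted p below 0.05, 5 of the 15434 genes passed (0.0324%), and with a fold change above 2 in either direction as well, 1 gene was called higher (0.00648%) and 3 were called lower in KO (0.0194%). The called genes were Lrtm2, which rose, and Camk2b, Aatk and Cyp2c70, which fell. Ide, insulin-degrading enzyme, passed the adjusted p but lay below the fold threshold, and was named after its values were seen. Across all tested genes the median absolute log2 fold change was 0.122, and 91.1% of genes lay within 0.5 of 0, against a median of 0.333 and 66.7% of genes on chow and of 0.17 and 85.4% of genes in SC-435 females. At an unadjusted p below 0.05 there were 709 genes higher (4.59%) and 657 lower (4.26%) in KO.

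How many genes were called depended on the test and on single mice. DESeq2 called 41 genes higher (0.266%) and 30 lower (0.194%), voom with quality weights called 15 in all, and edgeR called 11 without WT mouse 4, 10 without WT mouse 3 and 9 without KO mouse 2, against 4 with all 8 mice. All 4 genes called by edgeR were among the 71 called by DESeq2. The plot of the 5 genes shows the level of each in every mouse.

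**Figure D1:**
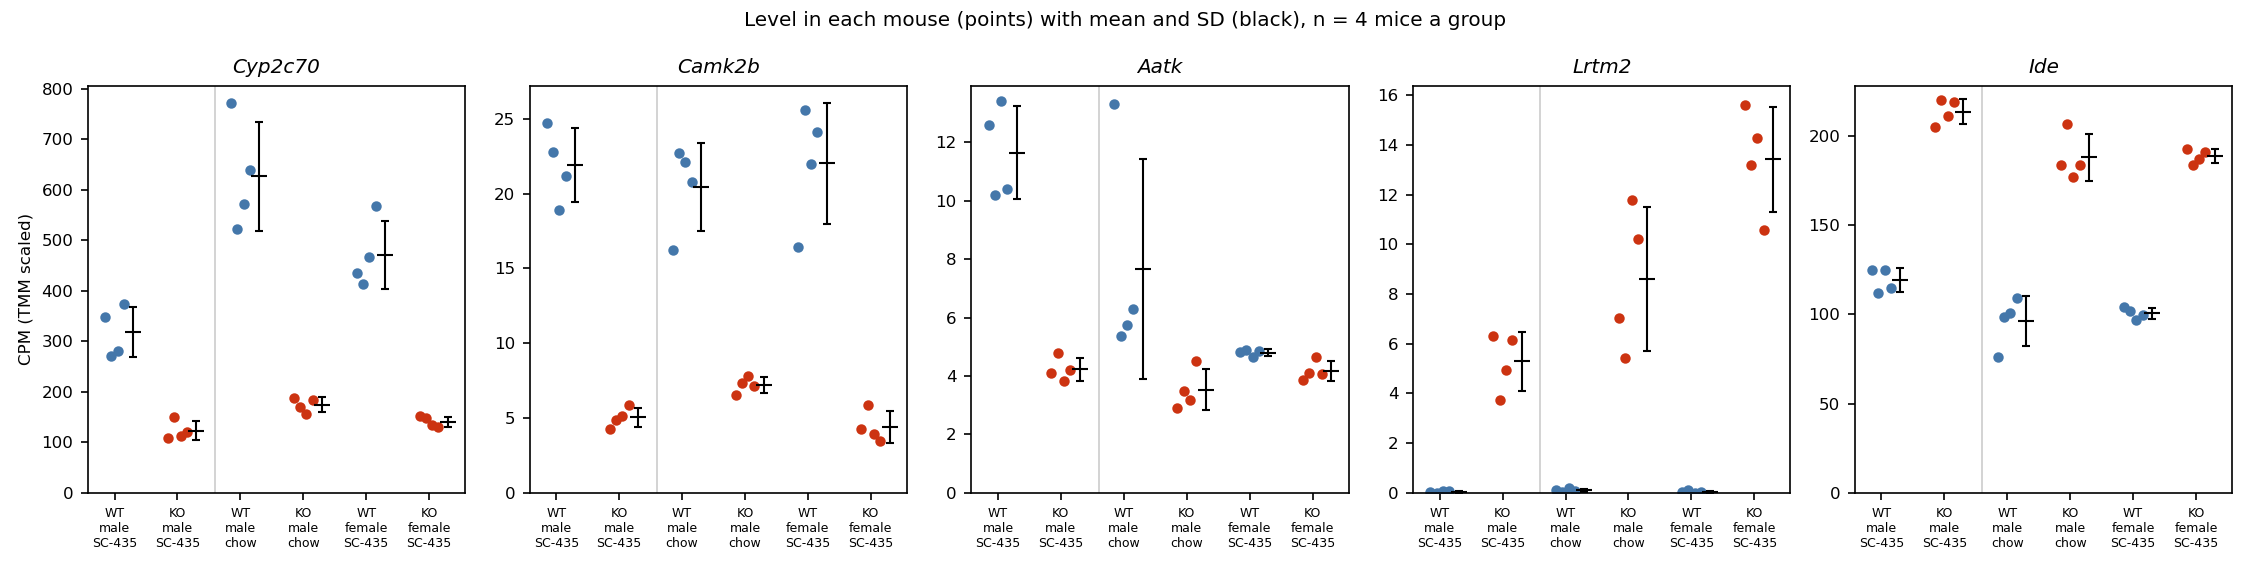
CPM of Cyp2c70, Camk2b, Aatk, Lrtm2 and Ide in each mouse (points; blue WT, red KO) with the group mean and SD (black), for males on SC-435, males on chow and females on SC-435, 4 mice a group. In males on SC-435 no KO point overlaps the WT points for any of the 5 genes, while for Aatk the female WT mice lie at 4.64 to 4.88 CPM, near the KO mice.

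Camk2b encodes the beta subunit of the calcium and calmodulin dependent kinase CaMKII, best known from neurons. It lies on chr11:5969644-6066362 (GRCm38, minus strand). The WT mice had 24.7, 22.8, 18.9 and 21.2 CPM and the KO mice 4.26, 4.89, 5.15 and 5.85 CPM. Every KO mouse lay below every WT mouse, and the log2 fold change was -2.12 (SE 0.12, adjusted p = 9.51e-05). The gene passed the adjusted p in all 16 alternative fits. It was also lower in KO on chow (-1.47, SE 0.18, adjusted p = 0.0126) and in SC-435 females (-2.33, SE 0.18, adjusted p = 0.000111).

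Lrtm2, a membrane protein with leucine-rich repeats, was close to absent in WT livers and present in KO livers. It lies on chr6:119315133-119330766 (GRCm38, minus strand), inside Cacna2d4, a calcium channel subunit gene on the plus strand. The WT mice on SC-435 had 0.0292, 0, 0.0791 and 0.0536 CPM, which is 6 counts in the 4 libraries together, and the KO mice had 6.3, 3.75, 4.94 and 6.17 CPM, or 849 counts. The KO to WT ratio was 134, with a counting interval of 61.3 to 366 (95%, exact binomial), and the interval covers counting error only. The edgeR adjusted p was 9.51e-05, and the gene passed in all 16 alternative fits. The ratio was 88.9 (52.8 to 163) in chow males, from 14 WT and 1700 KO counts, and 377 (173 to 1030) in SC-435 females, from 6 WT and 2259 KO counts. Whether counting used the strand is not given in the sources used here. Cacna2d4 itself held 0 to 0.105 CPM in WT and 0.132 to 0.198 CPM in KO and was too low to be tested in SC-435 males. In chow males it held 0 to 6 counts in WT and 14 to 25 counts in KO, so it too was higher in every KO mouse there.

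Aatk, an apoptosis-associated tyrosine kinase gene, lies on chr11:120007313-120047167 (GRCm38, minus strand). The WT mice had 12.6, 10.2, 13.4 and 10.4 CPM and the KO mice 4.09, 4.77, 3.83 and 4.19 CPM. The groups did not overlap, with a log2 fold change of -1.46 (SE 0.13, adjusted p = 0.00197). The gene passed in 14 of 16 alternative fits, and with the 4 male groups in a single fit the adjusted p was 0.0669. On chow the log2 fold change was -1.08 (SE 0.33, adjusted p = 0.168), where WT mouse 1 had 13.3 CPM and the other WT mice 5.36 to 6.28 CPM.

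Ide encodes a zinc protease that degrades insulin and other small peptides. It lies on chr19:37268743-37337852 (GRCm38, minus strand) and contains the processed pseudogene Rpl10-ps6. The WT mice had 125, 112, 125 and 115 CPM and the KO mice 205, 220, 211 and 219 CPM. No mice overlapped, and the log2 fold change was 0.84 (SE 0.07, adjusted p = 0.00197). It was 0.99 on chow (SE 0.17, adjusted p = 0.04) and 0.91 in SC-435 females (SE 0.05, adjusted p = 3.48e-05), so Ide passed the adjusted p in each of the 3 comparisons, as did Lrtm2, Camk2b and Cyp2c70.

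The 250 bases before the first RefSeq start site of Lrtm2, Camk2b and Ide (GRCm38.p6, minus strand, printed 5′ to 3′) are shown because these genes passed the test in all 3 comparisons. Capitals mark matches to AGGTCA, the half-site bound by nuclear receptors, to TTCNNNGAA, the STAT motif, to TGACNNNGC, the core of the NRF2 motif, or to TATAAA, on either strand.
Lrtm2, chr6:119330767-119331016: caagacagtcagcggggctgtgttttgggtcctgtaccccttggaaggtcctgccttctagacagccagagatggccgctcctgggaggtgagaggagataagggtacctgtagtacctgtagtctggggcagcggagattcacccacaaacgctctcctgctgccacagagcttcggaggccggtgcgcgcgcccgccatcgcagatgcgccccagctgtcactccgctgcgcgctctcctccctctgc
Camk2b, chr11:6065749-6065998: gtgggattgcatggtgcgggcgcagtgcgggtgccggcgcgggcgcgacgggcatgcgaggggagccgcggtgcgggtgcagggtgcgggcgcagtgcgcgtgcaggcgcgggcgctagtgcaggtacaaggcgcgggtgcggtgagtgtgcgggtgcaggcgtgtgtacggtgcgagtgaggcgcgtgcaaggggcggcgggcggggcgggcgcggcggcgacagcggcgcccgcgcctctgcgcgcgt
Ide, chr19:37334545-37334794: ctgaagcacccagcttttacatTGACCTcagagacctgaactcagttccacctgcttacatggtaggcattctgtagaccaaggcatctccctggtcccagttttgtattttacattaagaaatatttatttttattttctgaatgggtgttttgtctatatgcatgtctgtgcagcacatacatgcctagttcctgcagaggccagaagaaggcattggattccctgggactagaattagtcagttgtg
By the gene spans given above, the Camk2b and Ide windows lie inside those genes, downstream of the first GENCODE start, so they hold the RefSeq start region and not the sequence before the outermost start. Neither the Lrtm2 nor the Camk2b window held a match to any of the 4 motifs. The Ide window held a single AGGTCA match, on the opposite strand. Among all 32851 promoter windows of that length, 14% held AGGTCA, 7.02% held TTCNNNGAA, 10.2% held TGACNNNGC and 12.4% held TATAAA. The G and C content was 63.2% for Lrtm2, 78.4% for Camk2b and 42.8% for Ide, against a median of 52.4% over all windows. A missing match says only that these letters are not in the window.

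Ide lies 2.82 Mb from Cyp2c70, and the genes around the deleted locus were therefore listed. Within 5 Mb on chromosome 19, 106 further genes were tested, and Ide was the single gene with an adjusted p below 0.05. At an unadjusted p below 0.05 there were 12 of the 106 higher and 5 lower, against 4.59% and 4.26% of all tested genes, and their median log2 fold change was 0.03. Fgfbp3, a fibroblast growth factor binding protein gene 3.23 Mb away and named after its values were seen, had 0.496 to 0.751 CPM in WT and 1.29 to 1.61 CPM in KO, a log2 fold change of 1.30 (SE 0.21, adjusted p = 0.164). The same gene had 2.18 on chow (adjusted p = 0.0349) and 1.64 in SC-435 females (adjusted p = 0.00416). Scd1, the stearoyl-CoA desaturase that makes oleate, also lies in the window, 4.21 Mb away. The KO line was made by editing and its genomic background near the locus was not tested here.

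The Cyp2c genes near Cyp2c70 encode P450 enzymes for drugs and fatty acids, apart from the pseudogene Cyp2c53-ps. They are related in sequence, so some reads may have been split between them. Of the 13 tested within 5 Mb, none had an unadjusted p below 0.05 under SC-435 by edgeR, and none was called by DESeq2. Their median log2 fold change was 0.03 under SC-435. Without WT mouse 4, 4 of the 12 genes of the Cyp2c list were lower at an unadjusted p below 0.05. On chow the same genes had a median of -0.95, with 12 of 13 below 0. Cyp2c67 had -1.38 on chow (adjusted p = 0.0445) and -0.20 under SC-435 (adjusted p = 0.658).

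**Figure D2:**
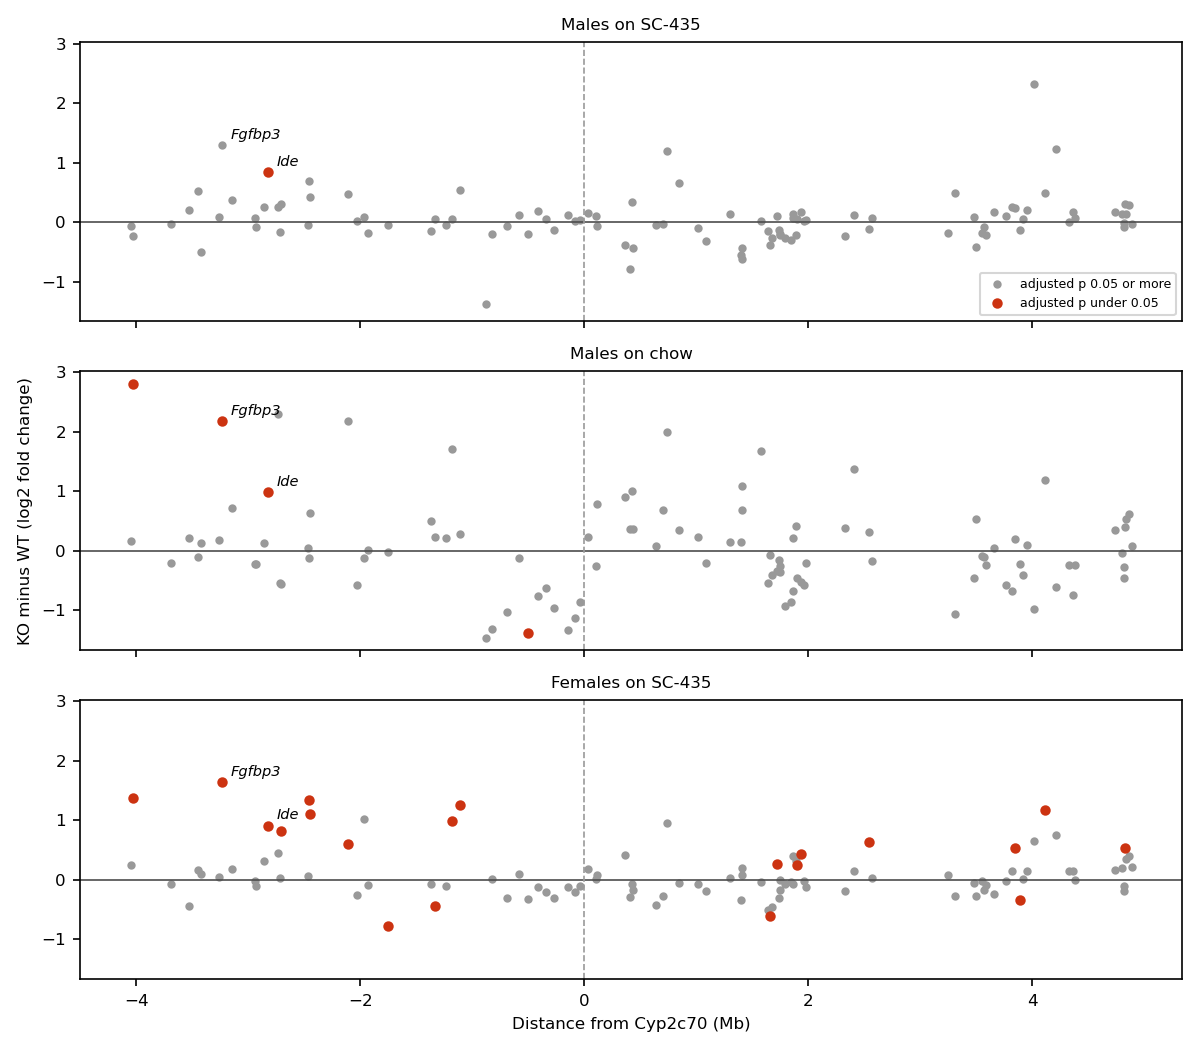
KO minus WT log2 fold change of the tested genes within 5 Mb of Cyp2c70 against distance from it in Mb, for males on SC-435, males on chow and females on SC-435 (red, adjusted p under 0.05). Ide is red in all 3 panels, at 0.84, 0.99 and 0.91, and the genes just left of 0 on the distance axis, mostly Cyp2c genes, lie below 0 on chow (median -0.95 over 13 Cyp2c genes) and on both sides of 0 under SC-435 in males (median 0.03).

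The genes that separated the genotypes on chow had smaller median differences under SC-435. On chow 145 genes were called higher in KO (0.914% of 15862) and 21 lower (0.132%). The chow values chose these genes and are given as a description, whereas the SC-435 mice are other animals. Of the 145, 115 passed the SC-435 filter on low counts and 30 did not. The median log2 fold change of those called higher was 2.78 on chow, and 0.27 under SC-435 over the 115 tested, of which 83 were above 0, 65 lay within 0.5 of 0 and 1, Lrtm2, was called. Of the 21 called lower, 20 were tested, with a median of -1.83 on chow and -0.23 under SC-435, and 2, Camk2b and Cyp2c70, were called. Without WT mouse 4, the mouse with high acute-phase genes, the first median was 0.63, over 120 genes of which 114 were above 0 and 50 within 0.5 of 0. The chow calls themselves ranged from 10 without chow WT mouse 3 to 637 without chow WT mouse 1, a library whose TMM factor of 0.622 stood apart. With replicate number as a block, 15 genes were called higher and 2 lower on chow.

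**Figure D3:**
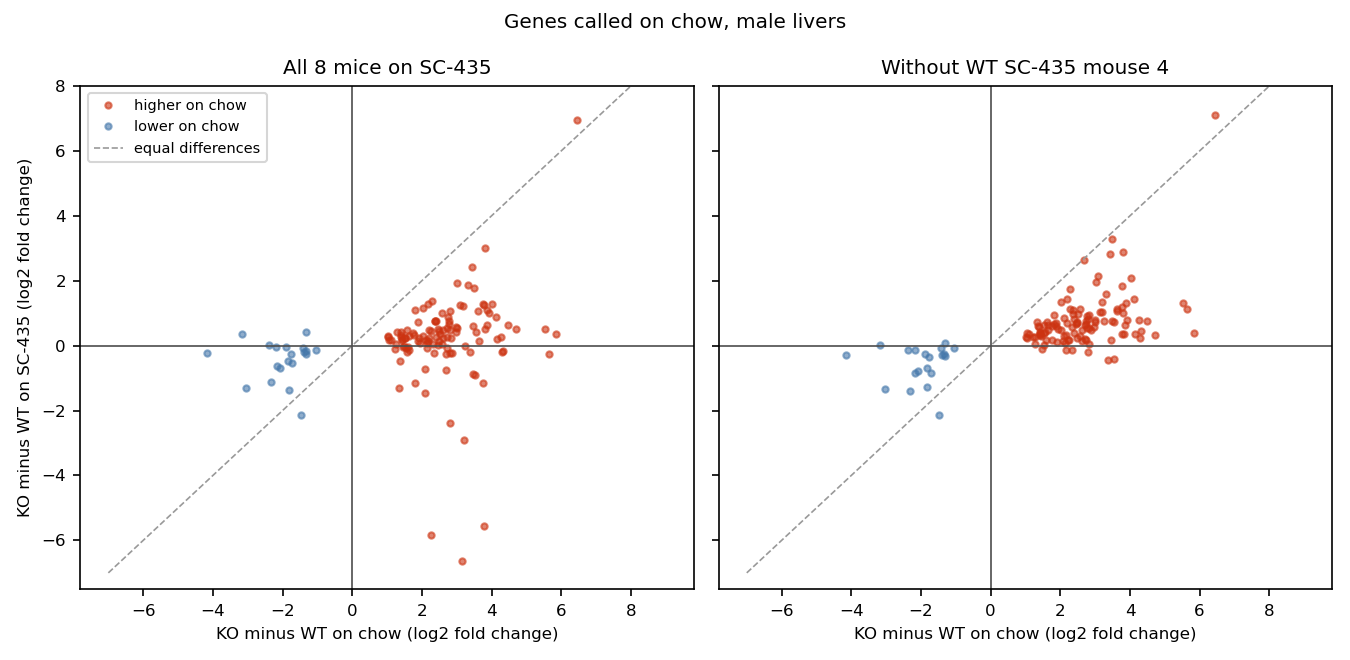
Each point is a gene called between male KO and WT on chow (red higher, blue lower in KO), with its log2 fold change on chow on the horizontal axis and under SC-435 on the vertical axis, with all 8 mice (left) and without WT SC-435 mouse 4 (right); the dashed line marks equal differences. Of the 115 red points in the left panel, 65 lie within 0.5 of 0 on the vertical axis; the red points reach down to -6.63 in the left panel and to -0.43 in the right panel.

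The change of the genotype difference with diet was tested directly. The genotype by diet interaction over the 16 male mice had an adjusted p below 0.05 for 15 of 16555 genes (0.0906%), 13 with a lower KO minus WT difference under SC-435 than on chow (0.0785%) and 2 with a higher one (0.0121%). The count ran from 2 to 118 when single mice were left out, the highest without chow WT mouse 1, and DESeq2 gave 357. Mmp12, the macrophage elastase, had a mean of 0.24 CPM in WT and 13.8 CPM in KO on chow, and 0.356 and 0.459 CPM on SC-435 (interaction -5.44 on the log2 scale, SE 0.56, adjusted p = 0.000774). The monocyte chemokine Ccl2 had 0.31 and 5.44 CPM on chow, and 0.325 and 0.373 CPM on SC-435 (interaction -3.93, SE 0.43, adjusted p = 0.000814). Both kept an adjusted p below 0.05 in all 23 alternative fits, and the other 13 genes did not.

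The other 3 genes named from the interaction were Dhrs9, a retinol dehydrogenase, Atf3, a stress-induced transcription factor, and the chemokine Cxcl14. Dhrs9 had 1.95 and 28.1 CPM in WT and KO on chow, and 3.21 and 6.87 CPM on SC-435 (interaction -2.75, adjusted p = 0.0211). Atf3 had 0.787 and 9.53 CPM on chow, and 0.776 and 1.65 CPM on SC-435 (interaction -2.52, adjusted p = 0.0299). Of 23 alternative fits Dhrs9 passed in 20 and Atf3 and Cxcl14 in 14 each. Cxcl14 had 1.76 and 19.1 CPM on chow, and 3.25 and 1.8 CPM on SC-435 (interaction -4.30, adjusted p = 0.0299), where WT mouse 4 had 8.29 CPM and the other WT mice 1.14 to 1.98 CPM. Under SC-435 Atf3 was at 1.37 to 2.04 CPM in KO and 0.633 to 0.944 CPM in WT, with no overlap, and Dhrs9 was at 4.46 to 8.25 CPM in KO and 2.19 to 4.64 CPM in WT, with an overlap between KO mouse 3 and WT mouse 4.

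Gene lists were read by role against all tested genes, of which 4.59% were higher and 4.26% lower in KO at an unadjusted p below 0.05, with a median log2 fold change of -0.01. The 35 lists, none of which included Cyp2c70, held 574 tested genes. No list had a member with an adjusted p below 0.05 by edgeR, while 19 lists had such a member by DESeq2 and 3 had by edgeR without WT mouse 4. The list medians lay within 0.25 of 0 for 25 lists under SC-435 and for 5 lists on chow, and 16 lists held a gene called on chow. The counts given below are of unadjusted p values and single out no list by themselves.

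**Figure D4:**
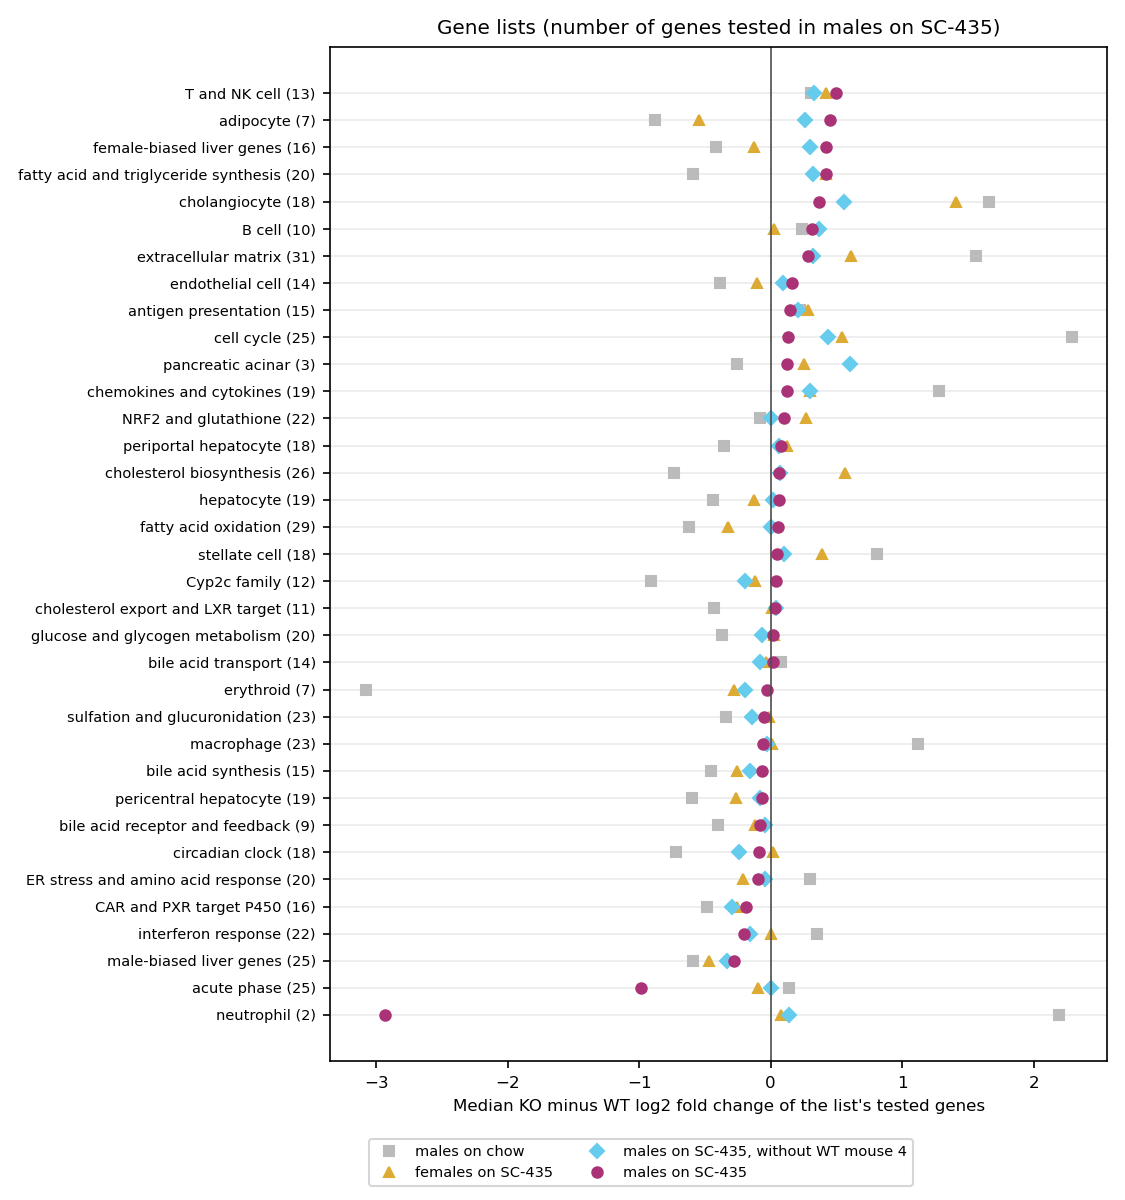
Median KO minus WT log2 fold change of the tested genes of each of the 35 lists, for males on SC-435 with all 8 mice (purple circles) and without WT mouse 4 (light blue diamonds), males on chow (grey squares) and females on SC-435 (yellow triangles). Of the 35 purple circles 25 lie within 0.25 of 0. The farthest from 0 are the acute-phase list at -0.99 and the neutrophil list, with 2 tested genes, at -2.93, and both move to near 0 without WT mouse 4. The highest are the T and NK cell list at 0.494 and the adipocyte list at 0.449.

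No gene of the bile acid synthesis list, which leaves out Cyp2c70, passed the test under SC-435. The 15 tested genes had a median of -0.07, with 0 higher and 2 lower at an unadjusted p below 0.05. Cyp7a1 had 712, 562, 502 and 460 CPM in WT and 580, 322, 662 and 450 CPM in KO, overlapping throughout (log2 fold change -0.15, SE 0.22, adjusted p = 0.854). Cyp8b1, the sterol 12α-hydroxylase that directs synthesis to cholic acid, had 1100, 1290, 1030 and 742 CPM in WT and 989, 876, 1040 and 1030 CPM in KO (-0.08, SE 0.15, adjusted p = 0.897). On chow the means of WT and KO were 86.2 ± 61.7 and 35.4 ± 18 CPM for Cyp7a1 and 509 ± 439 and 126 ± 101 CPM for Cyp8b1 (SD, n = 4). Chow WT mouse 1, with a TMM factor of 0.622, was extreme in both genes. The unscaled Cyp8b1 counts were 29544, 15457, 8182 and 9932 in WT mice 1 to 4 and 7585, 10751, 1783 and 2774 in KO. Those of Cyp7a1 were 401, 5952, 2688 and 3835 in WT and 1182, 1171, 1266 and 3459 in KO.

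The 2 synthesis genes with the smallest p belong to the oxysterol branch. Cyp7b1, the oxysterol 7α-hydroxylase, had 329, 253, 257 and 387 CPM in WT and 163, 270, 123 and 152 CPM in KO (-0.79, SE 0.24, adjusted p = 0.384). Only KO mouse 2 reached into the WT range. Cyp39a1, which hydroxylates 24-hydroxycholesterol, had 15.2 to 26.1 CPM in WT and 9.66 to 20.6 CPM in KO (-0.68, SE 0.23, adjusted p = 0.437). The adjusted p of Cyp7b1 in SC-435 females was 0.0196 and that of Cyp39a1 was 0.00442, at -0.48 and -0.84.

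No bile acid receptor or transporter gene passed the test. Of the 9 receptor and feedback genes, 1 was lower and 0 were higher at an unadjusted p below 0.05. Nr0b2 (SHP), the repressor induced by the bile acid receptor FXR, had 37.8, 42.4, 20.8 and 7.37 CPM in WT and 10.4, 15.6, 15.2 and 19.3 CPM in KO (-0.85, SE 0.43, adjusted p = 0.604). WT mice 1 to 3 lay above every KO mouse and WT mouse 4 below all of them, and without WT mouse 4 the log2 fold change was -1.16 (SE 0.25, adjusted p = 0.143). Of the 14 transporter genes, 1 was higher and 0 were lower, and the median was 0.02. Without WT mouse 4 the lower counts were 4 of the synthesis genes, 3 of the receptor and feedback genes and 4 of the transporter genes, where 4.18% of all genes were lower and 6.03% higher, and the medians of the synthesis and transporter genes were -0.16 and -0.08. Slc10a1 (NTCP), which imports bile acids from blood, had a mean of 553 ± 99 CPM in WT and 569 ± 19.3 CPM in KO (SD, n = 4; 0.04, SE 0.13, adjusted p = 0.946). Abcb11 (BSEP), the canalicular bile salt exporter, had 758 ± 28.4 and 805 ± 21.6 CPM (0.09, SE 0.08, adjusted p = 0.776). Abcb1a, a multidrug exporter, had 1.9 to 2.07 CPM in 3 WT mice, 0.965 CPM in WT mouse 4 and 2.46 to 3.11 CPM in KO (0.67, SE 0.23, adjusted p = 0.44).

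Among the genes that modify drugs and bile acids, Sult5a1, a sulfotransferase, came closest to the threshold. The WT mice had 51.6, 53.5, 36.7 and 42 CPM and the KO mice 14.3, 24.6, 16.7 and 19.3 CPM, without overlap (log2 fold change -1.29, SE 0.18, adjusted p = 0.0646; 0.034 without WT mouse 4). It was also -3.04 on chow (adjusted p = 0.041) and -1.39 in SC-435 females (adjusted p = 0.00177). Sult2a1 and Sult2a2, which sulfate bile acids, held at most 0.132 CPM in any of the 8 mice and were not tested. Of the 16 P450 genes driven by the receptors CAR and PXR, 1 was higher and 4 lower at an unadjusted p below 0.05 with a median of -0.19, and without WT mouse 4, whose list level was far below that of the other WT mice, 1 was higher and 7 lower with a median of -0.295.

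Genes of glutathione conjugation and of the NRF2 response had 4 of 22 higher and 2 lower, with a median of 0.1. Without WT mouse 4, 4 were higher and 3 lower, with a median of 0.00112. Gstm3, a glutathione transferase, had 99.5, 106, 98.1 and 58.6 CPM in WT and 151, 140, 249 and 151 CPM in KO (0.93, SE 0.22, adjusted p = 0.248), with no overlap. Gstp1, another transferase, had 900 to 1290 CPM in WT and 697 to 915 CPM in KO (-0.58, SE 0.14, adjusted p = 0.251). In SC-435 females Gstm3 had 1.38 (adjusted p = 0.00147) and Gstp1 had -0.02 (adjusted p = 0.927).

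Of 20 genes of fatty acid and triglyceride synthesis, 11 were higher and 0 lower at an unadjusted p below 0.05 under SC-435, with a median of 0.42. DESeq2 gave 4 of them an adjusted p below 0.05 (0.700% of all genes were higher by that rule), and without WT mouse 4 there were 10 higher, with a median of 0.32. On chow the same list had 1 higher and 9 lower, with a median of -0.59, against 10.1% of all genes higher and 5.31% lower there. Scd1 had 5740, 5900, 6360 and 5630 CPM in WT and 13300, 8510, 18600 and 14800 CPM in KO. All KO mice lay above all WT mice, and the log2 fold change was 1.22 (SE 0.21, edgeR adjusted p = 0.166, DESeq2 adjusted p = 4.42e-07). Pnpla3, a lipid droplet hydrolase, had 0.0292 to 0.185 CPM in WT and 0.297 to 1.41 CPM in KO (2.74, SE 0.58, adjusted p = 0.239). These are low counts, 1, 4, 7 and 5 in WT mice 1 to 4 and 33, 58, 20 and 12 in KO mice 1 to 4. The highest were in KO mice 2 and 1, the mice with adipocyte transcripts, and the part of those transcripts was not tested. Cholesterol synthesis genes, which respond to sterol loss through SREBP2, had 1 of 26 higher and 0 lower, with a median of 0.07, whereas 19 of them had an adjusted p below 0.05 in SC-435 females, all higher, where 10.9% of all genes did in either direction. Of 29 fatty acid oxidation genes 1 was higher and 0 lower, and of 11 cholesterol export genes 1 and 0.

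Genes of bile ducts and scar matrix had smaller list medians under SC-435 than on chow. Of 18 cholangiocyte genes 8 were higher and 0 lower at an unadjusted p below 0.05, and the median was 0.37 under SC-435 and 1.66 on chow. The median without WT mouse 4 was 0.56, with all 18 genes above 0 and 9 higher. Spp1 (osteopontin), a secreted glycoprotein of bile duct cells and macrophages, had 23.5, 27.7, 25.8 and 34.1 CPM in WT and 49.2, 39.1, 42.1 and 42.3 CPM in KO (0.63, SE 0.12, adjusted p = 0.184; 0.0211 without WT mouse 4). Epcam, the epithelial adhesion molecule of duct cells, had 1.02 to 1.31 CPM in WT and 1.95 to 2.12 CPM in KO (0.76, SE 0.16, adjusted p = 0.235). Krt19, the duct cell keratin, had 0.613 to 1.26 CPM in WT and 0.967 to 1.8 CPM in KO (adjusted p = 0.526). In both Spp1 and Epcam every KO mouse lay above every WT mouse, as did 2.66% of all tested genes.

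Of 31 extracellular matrix genes 8 were higher and 0 lower, with a median of 0.29 under SC-435 against 1.56 on chow. There were 15 higher without WT mouse 4. Of 18 stellate cell genes 4 were higher and 0 lower. Col1a1, a chain of type I collagen, had 3.45, 5.45, 3.72 and 10.7 CPM in WT and 13.2, 17.6, 10.5 and 7.16 CPM in KO (1.06, SE 0.38, adjusted p = 0.449). The highest WT value was that of mouse 4, above KO mice 3 and 4. The 2 highest KO values were those of mice 2 and 1, which carried adipocyte transcripts, and the part of those transcripts was not tested. Acta2, the smooth muscle actin of activated stellate cells, had 0.617 to 0.905 CPM in WT and 4.43, 5.33, 2.03 and 0.991 CPM in KO (1.98, SE 0.47, adjusted p = 0.248). Its 2 highest values were in KO mice 2 and 1, the mice with adipocyte transcripts, and the part of those transcripts in the result was not tested. Timp1, an inhibitor of matrix metalloproteinases, held at most 0.322 CPM in any of the 8 mice and was too low to be tested.

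No gene of the macrophage or chemokine lists passed edgeR's test with all 8 mice, while DESeq2 gave Spp1 an adjusted p of 0.000728 and the T cell chemokine Ccl5 one of 0.0415. Of 23 macrophage genes 3 were higher and 0 lower, and the median was -0.06 under SC-435 (-0.03 without WT mouse 4) and 1.12 on chow. Of 19 chemokine and cytokine genes 7 were higher and 2 lower, with a median of 0.12 against 1.28 on chow. Their median without WT mouse 4 was 0.30, with 15 of 20 tested genes above 0. Ccl2 had 0.26 to 0.429 CPM in WT and 0.291 to 0.446 CPM in KO, and Cxcl10 had 1.9 to 3.27 and 1.53 to 4.44 CPM. Il1b, interleukin 1 beta, had 0.467 to 1.34 CPM in WT and 0.766 to 2.38 CPM in KO (0.93, SE 0.40, adjusted p = 0.553). Cxcl1, a neutrophil chemokine, had 10.1 CPM in WT mouse 4 and 3.03 to 4.67 CPM in the other WT mice, against 2.04 to 4.24 CPM in KO. The cytokine Tgfb1 had 11.5 ± 1.32 CPM in WT and 12.7 ± 1.14 CPM in KO (SD, n = 4; adjusted p = 0.721).

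Lymphocyte transcripts were low. Of 13 T and NK cell genes 2 were higher at an unadjusted p below 0.05, of 10 B cell genes 3, and of 15 antigen presentation genes 7, with 0 lower in each. Ighm, the heavy chain of IgM, had 4.85, 8.97, 4.3 and 3.06 CPM in WT and 18.2, 7.22, 31.5 and 27.6 CPM in KO (1.99, SE 0.45, adjusted p = 0.239), with KO mouse 2 inside the WT range. Ciita, the master regulator of MHC class II, had 1.27 to 1.81 CPM in WT and 2.03 to 3.42 CPM in KO (adjusted p = 0.278).

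The acute-phase list turned on WT mouse 4. With all 8 mice, 1 of its 25 genes was higher and 10 were lower at an unadjusted p below 0.05, and the median was -0.99. Without WT mouse 4, 5 were higher and 4 lower, with a median of 0.00252. Of the 25 genes, 3 had every KO mouse below every WT mouse (2.69% of all genes did). Of the 2 tested neutrophil genes, Lcn2 was the lower one at an unadjusted p below 0.05. Hamp, hepcidin, the hormone that limits iron export, had 571 to 722 CPM in WT and 277 to 496 CPM in KO (-0.71, SE 0.16, adjusted p = 0.239; -0.69 and 0.18 without WT mouse 4). In SC-435 females Hamp had -1.08 (adjusted p = 0.00961). Saa4, the constitutive serum amyloid, had 502, 267, 396 and 707 CPM in WT and 203 to 249 CPM in KO (-1.09, SE 0.24, adjusted p = 0.239).

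**Figure D5:**
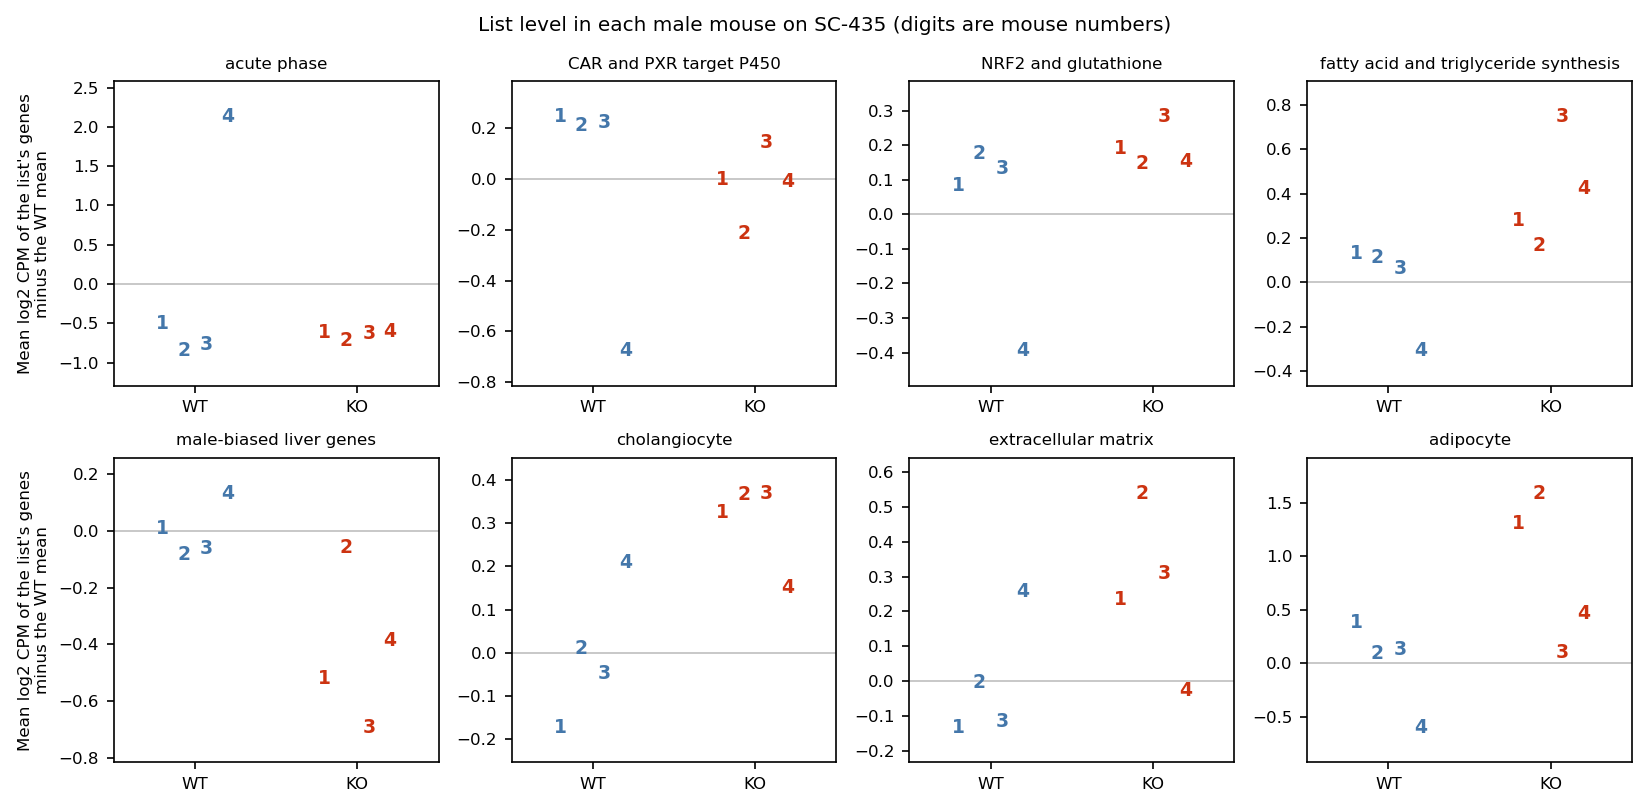
Mean log2 CPM of the tested genes of 8 lists, minus the WT mean, in each male mouse on SC-435 (digits are mouse numbers; blue WT, red KO). WT mouse 4 is far from the other WT mice for the acute-phase list (2.13 against -0.85 to -0.51) and for the CAR and PXR target list (-0.68 against 0.21 to 0.25), and KO mice 1 and 2 are the highest for the adipocyte list.

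Of 25 tested genes that male livers express above female livers under growth hormone, 20 had a log2 fold change below 0 and 5 above 0, where 48.3% of all genes were above 0. Among them 0 were higher and 9 lower at an unadjusted p below 0.05, with a median of -0.28, and DESeq2 gave 4 an adjusted p below 0.05 (0.460% of all genes were lower by that rule). Mup7, a major urinary protein, had 5840, 6320, 5960 and 6680 CPM in WT and 2030, 4460, 2050 and 3400 CPM in KO (-1.05, SE 0.25, edgeR adjusted p = 0.246, DESeq2 adjusted p = 0.00151). Serpina1e, an alpha-1 antitrypsin, had 8100 to 11300 CPM in WT and 5140 to 6850 CPM in KO (-0.66, SE 0.15, adjusted p = 0.239). The 71 genes called by DESeq2 included 7 Mup genes and pseudogenes, all lower in KO, where 0.194% of all tested genes were called lower. How many Mup genes were tested was not counted. They are near-identical copies whose reads cannot be assigned with certainty. On chow Mup8 and Mup-ps19 had log2 fold changes of 4 and 1.232, and the others were below 0. Female-biased genes had 3 of 16 higher and 0 lower. Nipal1, a magnesium transporter, had 3.13 to 4.18 CPM in WT and 17.6, 3.02, 21.3 and 11.1 CPM in KO (adjusted p = 0.262), with KO mouse 2 below all WT mice.

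The remaining lists cover hepatocyte zones, metabolism and other cells. Pericentral genes had 0 of 19 higher and 1 lower, and periportal genes 2 of 18 higher and 0 lower. Glucose and glycogen genes had 4 of 20 higher, endothelial genes 2 of 14 higher and cell cycle genes 0 of 25 in either direction. The cell cycle median was 0.13 under SC-435 (0.435 without WT mouse 4) and 2.29 on chow. Interferon response genes had 0 of 22 higher and 5 lower, and clock genes 0 of 18 higher and 2 lower. Without WT mouse 4 the interferon counts were 1 higher and 1 lower, the cell cycle counts 5 and 0, the pericentral counts 0 and 4 and the clock counts 2 and 1. For 7 erythroid and 19 hepatocyte genes no gene had an unadjusted p below 0.05 in either direction, while the 20 genes of ER stress had 1 higher and 1 lower, the 23 of sulfation and glucuronidation 1 and 1, and the 3 of pancreatic acinar cells 0 and 1. Leaving out WT mouse 4 gave 1 and 6 for sulfation and glucuronidation (median -0.14) and 4 and 0 for ER stress. It gave 0 and 1 for erythroid genes, and 1 and 1 for hepatocyte and for acinar genes. Of all genes 6.03% were higher and 4.18% lower in that fit. The adipocyte list had 4 of 7 tested genes higher: adipsin (Cfd) was at 41.6, 67.9, 1 and 7.61 CPM in KO and at 0.295 to 1.58 CPM in WT, and Fabp4, the adipocyte fatty acid binding protein, was at 28.2, 41.1, 10.3 and 7.96 CPM in KO and at 6.01 to 8.59 CPM in WT.

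Leaving out WT mouse 4 brought 10 further genes to an adjusted p below 0.05 beside Camk2b, Lrtm2, Ide, Aatk and Cyp2c70 (15 in all, 0.0958% of 15664; 6 called higher, 0.0383%, and 5 called lower, 0.0319%). These genes are named after their values were seen. Fabp5, an epidermal fatty acid binding protein, had 6.4, 7.77 and 5.7 CPM in WT mice 1 to 3, 64.1 CPM in WT mouse 4 and 22.2 to 28 CPM in KO (1.97 without mouse 4, SE 0.13, adjusted p = 0.000196). Osbpl3, an oxysterol binding protein relative, had 13.3 to 13.4 CPM in those 3 WT mice, 5.18 CPM in WT mouse 4 and 23 to 29.6 CPM in KO (1.01, SE 0.10, adjusted p = 0.00301). Wdfy1, an endosomal protein, had 21.6 to 23.8, 11.8 and 8.16 to 10.9 CPM in the same order (-1.22, SE 0.11, adjusted p = 0.00129). Scn8a, a sodium channel gene, had 0.158 to 0.175, 0.375 and 0.669 to 1.65 CPM (2.82, SE 0.39, adjusted p = 0.0347), and it also passed on chow and in SC-435 females. The remaining genes were Hsf2bp, Spp1, Chka, St5, Cdc42ep5 and Sult5a1.

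Females on SC-435 showed more genotype differences than males by count, with 316 genes called higher (1.99% of 15869) and 90 lower (0.567%). Of the 316, 253 were tested in males, where their median log2 fold change was 0.49 and 224 were above 0. Of the 90, 85 were tested in males, with a median of -0.605 and 72 below 0. Of the 405 genes with every male KO mouse above every WT mouse that were also tested in females, 82.5% were above 0 in females, where 48.4% of all genes were. Of the 411 below, 85.2% were below 0 in females, against 51.6% of all genes. The corresponding shares on chow in males were 70.2% (52.1% of all genes) and 55.1% (47.9%).

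The genotype by sex interaction under SC-435 had an adjusted p below 0.05 for 5 of 16477 genes (0.0303%), 2 with a higher difference in males (0.0121%) and 3 with a lower one (0.0182%), and for 2 to 9 when single mice were left out, with 9 without male WT mouse 4. Aatk was among them: female WT mice had 4.64 to 4.88 CPM and female KO mice 3.86 to 4.64 CPM, so the male minus female difference in log2 fold change was -1.26 (SE 0.15, adjusted p = 0.00607). Adamts7, a metalloprotease of the matrix, had 6.06 to 6.86 CPM in male WT and 6.77 to 7.98 CPM in male KO, and 5.63 to 7.76 and 14.3 to 18.6 CPM in females (interaction -1.18, SE 0.16, adjusted p = 0.0117). Spp1 had 25.8 to 30 CPM in female WT and 82.5 to 120 CPM in female KO (interaction -1.15, SE 0.17, adjusted p = 0.0272). Elovl3, a fatty acid elongase, had 444 to 473 CPM in male WT and 351 to 536 CPM in male KO, and 38 to 54.5 and 4.34 to 14.5 CPM in females (interaction 2.30, SE 0.36, adjusted p = 0.0289). Pitx3, a homeobox transcription factor gene, had 7.1 to 10.3 and 6.26 to 12.6 CPM in male WT and KO, and 0.448 to 0.61 and 0 to 0.114 CPM in females (adjusted p = 0.0308). Aatk and Adamts7 kept an adjusted p below 0.05 in all 23 alternative fits, Spp1 in 17, Elovl3 in 13 and Pitx3 in 11.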

How the data were processed

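RNA from 32 mouse livers was sequenced after poly-T selection. Per the submitters' processing notes, mm10, HISAT2 2.0.5, featureCounts 1.5.0-p3, DESeq2 1.20.0 and GATK 4.1.1.0 were used; annotation release and strand setting are not given in the sources used here. The authors deposited whole-number read counts per gene for 54532 genes, which were analysed as deposited. The same table holds FPKM values and the authors' group means, fold changes and p-values for several comparisons, none of which was used.

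Groups followed the labels. KO and WT were compared with edgeR 4.0.16 (filterByExpr, TMM, glmQLFit and glmQLFTest, R 4.3.3) on the 8 libraries of each comparison, and interactions on 16 libraries. Genes were called at a Benjamini-Hochberg adjusted p below 0.05 and an absolute log2 fold change above 1, and in interactions at the adjusted p alone. CPM used TMM factors over all 32 libraries, and log2 CPM a pseudocount of 0.5. Alternatives were DESeq2 1.42.0, limma 3.58.1 (voom with quality weights), other scalings and filters, a replicate block, and leaving out each library. Scripts were tested on simulated counts. No pair of libraries of a group agreed within sampling noise (lowest chi-square per gene 20.3), and intervals cover counting error only.

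The members and lists were chosen with earlier results of these data known. The naming rule took Cyp2c70, the 12 strongest called protein-coding rises and falls (averaging 50 counts or more, groups apart), up to 4 called genes of a list or else the 2 with the lowest adjusted p, genes measured by the study, and 5 genes per interaction; not all are described. Ide, Fgfbp3, Cyp2c67, Adipoq, Cfd, Saa1, Saa2, Lcn2, Cacna2d4, Scn8a and the genes called without WT mouse 4 were named after their values were seen. Promoters are from RefSeq (GRCm38.p6) and exons from GENCODE (GRCm38).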

Additional observations from a re-analysis of the deposited data

Results flagged for a closer look

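In the group of 4 male WT mice on SC-435, WT mouse 4 lay apart from the other 3 for several genes, by more than Dixon's 95% critical value for 4 samples. In CPM it had 4.67 for Cyp2c55 (others 13.1 to 15.5), 0.965 for Abcb1a (1.9 to 2.07), 23.2 for Ugt1a5 (34.7 to 37.1), 58.6 for Gstm3 (98.1 to 106) and 0.375 for Scn8a (0.158 to 0.175). For the acute-phase genes it had 768 for Lcn2 (2.06 to 5.17), 9360 for Saa1 (25.1 to 49.4) and 9150 for Saa2 (8.33 to 15.3). Its mean log2 CPM, minus the WT mean, was 2.13 for the acute-phase list (others -0.848 to -0.506), -0.676 for CAR and PXR targets (0.21 to 0.245), -0.411 for bile acid transport (0.0781 to 0.169), -0.395 for NRF2 and glutathione (0.0843 to 0.176), -0.308 for fatty acid and triglyceride synthesis (0.0639 to 0.13) and -0.173 for bile acid synthesis (0.0476 to 0.0716).

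WT mouse 2 had 4.18 CPM of Nipal1 (others 3.13 to 3.24). KO mouse 3 had 249 CPM of Gstm3 (others 140 to 151), 11.3 of Acot2 (7.19 to 7.52), 2.69 of Lcn2 (4.36 to 4.8), 46.2 of Tfrc (22.2 to 23.9) and 0.766 of Il1b (2.31 to 2.38), and 0.372 for the clock list (others -0.348 to -0.25). In all, 272 groups were examined and 21 held such a mouse (7.72%), 14 of them WT mouse 4. Chance gives about 1 in 20 for independent groups chosen beforehand, and this share cannot be set against it. Saa1, Saa2, Lcn2 and Scn8a were named after their values were seen, and lists were counted beside their own members.

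The KO minus WT difference of 15 genes differed between SC-435 and chow in males by edgeR's interaction test. Beside Mmp12 (-5.44, adjusted p = 0.000774), Ccl2 (-3.93, adjusted p = 0.000814), Dhrs9 (-2.75), Atf3 (-2.52) and Cxcl14 (-4.3), these were, on the log2 scale, Slfn4 -5.5, Trem2 -4.47, Cxcl1 -4.41, Ifi27l2b -3.99, Tnfaip3 -2.57, Mlkl -1.7, Lrp11 -1.6, Map3k13 -1.47, Pparg 1.17 and Ngef 1.03. The adjusted p values other than those of Mmp12 and Ccl2 ran from 0.0211 to 0.0485. Of the 10 genes added here, none kept an adjusted p below 0.05 in more than 13 of its alternative fits, and the fewest was 6. Pparg belongs to the adipocyte list. Adipocyte transcripts were carried by chow WT mice 1 and 4 (Adipoq counts 253 and 244) and by SC-435 KO mice 1 and 2 (215 and 352). Their part in the Pparg interaction was not tested. The KO minus WT difference of 5 genes differed between males and females on SC-435, by 4.01 for Pitx3, 2.3 for Elovl3, -1.15 for Spp1, -1.18 for Adamts7 and -1.26 for Aatk.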

How the results depend on the processing

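Male SC-435 calls numbered 4 by edgeR, 71 by DESeq2, 15 by voom, 23 with no filter on low counts and 3 to 11 when single mice were left out. Lists with a member at an adjusted p below 0.05 numbered 0, and 19, 5, 4 and 0 to 4 in the same order; genes near Cyp2c70 numbered 1, and 6, 3, 2 and 1 to 2, where these alternatives were chosen after seeing the data. Chow calls numbered 166, and 861, 963, 273, 101 when genes averaging under 50 counts were left out, and 10 to 637 with single mice left out. Female calls numbered 406, and 213 under that stricter filter. Diet interactions numbered 15, and 357, 468, 57 and 2 to 118 with single mice left out; sex interactions 5, and 115 by DESeq2, 41 by voom and 2 to 9. The Cyp2c70 fold change ran from -1.484 to -1.287 with single mice left out. The median of genes higher on chow ran from 0.2286 to 0.6308 (without WT mouse 4), also an alternative chosen after seeing the data. The causes of these shifts were not tested.

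Mice share replicate numbers across genotypes. In SC-435 males the numbers showed no pairing, with correlations of same-numbered mice from -0.14 to 0.0991. With a replicate block, Cyp2c70 had -1.371 (adjusted p = 0.0543), Aatk and Ide also had an adjusted p of 0.0543, 0 genes near it passed, and 3 male SC-435, 17 chow, 6 diet interaction and 3 sex interaction calls were made. On chow every mouse correlated best with its own number (0.0778 to 0.165), a hint from the data and not the design. Of 1375 gene values past no threshold in either fit, 19 differed in sign.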

Other observations

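Several genes passed DESeq2's test but not edgeR's, and were named here after their values were seen. Ntrk2, the receptor for brain-derived neurotrophic factor, had 0.59 to 0.905 CPM in male WT mice on SC-435 and 9.03, 2.24, 10.4 and 3.4 CPM in KO (DESeq2 adjusted p = 5.87e-09, edgeR adjusted p = 0.148). Its log2 fold change was 3.00 in these males, 3.804 on chow and 0.02 in SC-435 females. Nr4a1, an immediate-early orphan nuclear receptor, had 1.11 to 1.84 CPM in WT and 2.75 to 11.8 CPM in KO (DESeq2 adjusted p = 0.00111, edgeR adjusted p = 0.248). Chrna4, a nicotinic acetylcholine receptor subunit, had 1.05 to 2.65 CPM in WT and 4.02 to 16.3 CPM in KO (edgeR adjusted p = 0.239), with log2 fold changes of 2.02 here, 0.21 on chow and 3.71 in SC-435 females. Mup15, a major urinary protein gene with near-identical copies, had 323 to 1510 CPM in WT and 32.7 to 134 CPM in KO (edgeR adjusted p = 0.166). Of the 71 genes called by DESeq2, 52 had no overlap between the genotypes. Among all tested genes 2.66% had every KO mouse above every WT mouse and 2.69% every KO mouse below. The 71 were chosen by a test on the same libraries, so their separation is a description only. Of the 69 also tested in females, 59 had the same sign there, as had 62.9% of all genes.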
